A study of Mus musculus with 46 samples.

Results

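Theca and stroma of the ovarian follicle were followed through 10 marker genes in single mouse follicles before and after an ovulatory stimulus. They were taken by name from tables of adjusted counts and of TPM (transcript abundance corrected for gene length and library size), and they are 10 of the 25147 genes in the count table. Cyp17a1 and Insl3 stand for steroid and hormone production, Ptch1, Gli1 and Hhip for the response to hedgehog signals, and Nr2f2, Pdgfra, Dcn, Lum and Tcf21 for the stromal cell itself. All 10 were found in both tables, and 7 had enough counts to be tested between times; Gli1, Hhip and Tcf21 did not.

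The 46 follicles came from CD-1 mice, an outbred stock, and were grown for 8 days in alginate, 1 follicle per well. They were then moved to a maturation medium with 1.5 IU/ml hCG (human chorionic gonadotropin, a ligand of the luteinizing hormone receptor), 10 ng/ml epidermal growth factor, 10 mIU/ml recombinant FSH and 10% fetal bovine serum. Groups of 9, 13, 13 and 11 follicles were taken at 0, 1, 4 and 8 h, each follicle sequenced alone from polyadenylated RNA. The 0 h follicles were all in batch 2 and the 8 h follicles all in batch 1, whereas 1 h and 4 h each had 10 follicles in batch 1 and 3 in batch 2. No follicle was kept without hCG for the same time, so hours after hCG and hours in the new medium cannot be told apart. The labels do not tie follicles to animals, so the p-values below rest on the variation among single follicles, some of which may share an animal.

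Theca cells surround the basement membrane of the growing follicle. Under luteinizing hormone they take cholesterol through Star, Cyp11a1 and Hsd3b1 to progestins, and Cyp17a1 turns these into androgens, which the granulosa cells inside convert to oestrogens. Granulosa cells secrete the hedgehog ligands Dhh and Ihh; these bind the receptor Ptch1 on theca cells and release Smo, and the pathway then raises its own readouts Gli1, Ptch1 and Hhip. In isolated follicles theca is a thin coat, so the amount left on each follicle can differ.

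Total counts ran between 241442 and 5185044 per follicle, with medians of 3286107, 730895, 1432395 and 1755429 at 0, 1, 4 and 8 h. A set of 3332 genes, with no member of the 10 among them, was counted in batch 1 but in none of the 6 batch 2 libraries made after hCG, and it held 22.6% to 46.2% of the counts at 0 h, which lowers every TPM value at 0 h. The summed TPM of 8 granulosa markers was between 14947 and 38641 at 0 h, 14619 and 40462 at 1 h, 13689 and 42949 at 4 h, and 9161 and 19969 at 8 h. A further 11 theca and stroma markers outside the 10 genes summed to 208 to 1448 TPM at 0 h, 109 to 2300.4 at 1 h, 45.3 to 2016 at 4 h and 26.1 to 1188 at 8 h. Theca and stroma markers were present in every follicle, at a small and very uneven level.

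**Figure D1:**
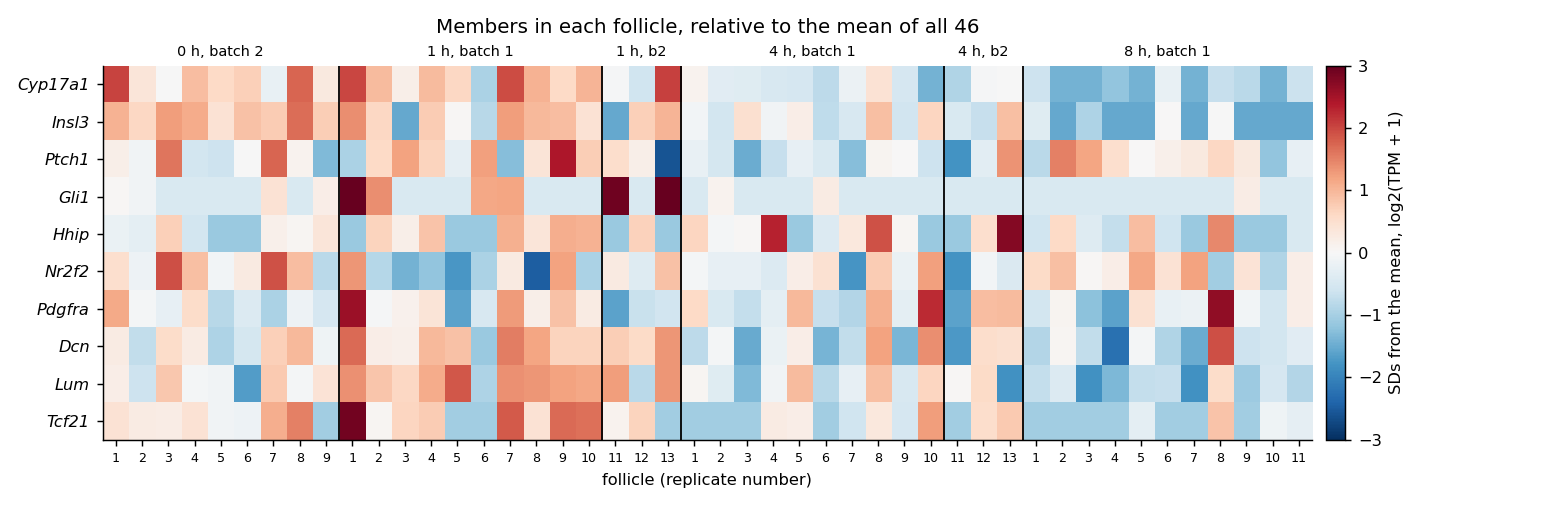
Each column is 1 of the 46 follicles, in time order and by batch, and each row 1 of the 10 genes; colour gives how many SDs the follicle's log2(TPM + 1) lies from that gene's mean, drawn no further than 3. The columns of 1 h replicates 1 and 7, 4 h replicates 8 and 10 and 8 h replicate 8 are high for several genes at once, and Cyp17a1 and Insl3 are low across the 8 h follicles.

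Across all times, 6 of the 7 genes tested differed (joint test of 0, 1, 4 and 8 h, edgeR quasi-likelihood with Benjamini-Hochberg adjustment over 8629 genes, adjusted p under 0.05), Pdgfra being the exception, where 79.8% of all genes tested did. Of the 7, 4 fell and none rose at 8 h against 1 h (49.1% of all genes were called, 25.9% as lower and 23.2% as higher). At 4 h against 1 h, 5 fell and none rose (54.8% called, 28.9% as lower and 26% as higher). Between 8 h and 4 h, Insl3 alone fell (41.3% called, 21.6% as lower and 19.8% as higher). The median log2 fold change of the 7 genes was -1.40 at 8 h and -1.59 at 4 h, each against 1 h, beside medians of -0.02 and -0.06 over all genes.

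Cyp17a1 (chr19:46667165-46673172 in GRCm38, minus strand) and Insl3, the theca's androgen enzyme and its insulin-like peptide hormone, were far lower at 8 h than at 1 h. Cyp17a1 had a lowest, median and highest level of 3.61, 12.1 and 78.9 TPM at 0 h, 0.783, 19.2 and 81.4 TPM at 1 h, 0, 2.83 and 9.52 TPM at 4 h, and 0, 0.331 and 3.51 TPM at 8 h. In batch 1, 9 of 10 follicles at 1 h lay above every 8 h follicle, and a Cyp17a1 count was found in only 6 of 11 follicles at 8 h. Its level fell by 5.01 ± 0.69 on the log2 scale (SE) at 8 h against 1 h, a 32.1-fold difference (adjusted p = 3.58e-08, edgeR, 11 against 13 follicles), and it fell by 3.15 ± 0.55 at 4 h against 1 h (adjusted p = 3.38e-06, 13 against 13). Between 8 h and 4 h the difference was -1.85 ± 0.79 and missed the threshold (adjusted p = 0.0541, 95% interval -3.39 to -0.31, edgeR); it passed without 1 h replicate 13 (-2.06). At 1 h against 0 h it was -0.24 (interval -1.65 to 1.18), so neither a rise nor a fall in the first hour was resolved.

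Insl3 (chr8:71689214-71690575, plus strand) ran at 26.6, 57.8 and 225 TPM (lowest, median, highest) at 0 h, 0, 43.4 and 138 TPM at 1 h, 2.68, 10.0 and 61.3 TPM at 4 h, and 0, 0 and 12.8 TPM at 8 h. It had a count in 11 of 13 follicles at 1 h, in all 13 at 4 h and in 4 of 11 at 8 h. Insl3 fell by 4.09 ± 0.71 (log2, SE) at 8 h against 1 h (adjusted p = 4.23e-06, edgeR) and fell by 2.38 ± 0.75 at 8 h against 4 h (adjusted p = 0.00918). It fell by 1.71 ± 0.56 at 4 h against 1 h (adjusted p = 0.00828), a call that was lost with limma on log2(TPM + 1) (-0.90). At 1 h against 0 h Insl3 differed by -1.11 ± 0.77, within its error. The 8 h libraries shared no library set with those at 4 h, so time and set cannot be told apart between them. Insl3 overlaps Jak3 on the same strand, so reads in the overlap could not be told apart even if strand were kept. As throughout, fewer theca cells and less RNA in each cannot be told apart in whole follicles.

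The proximal promoters of Insl3 and Ptch1 are shown as 1 theca hormone gene and 1 hedgehog gene with a listed promoter. Insl3 was lower at 4 h and at 8 h than at 1 h. The difference of Ptch1 at 8 h against 1 h did not pass. The RefSeq table (GRCm38.p6; 250 bases before to 50 after the annotated start, written 5′ to 3′ on the gene's strand) held 6 of the 10 genes. Capitals mark matches to TATAA on either strand; its 2 matches in Insl3 overlap as a single run.
Insl3 (chr8:71689002-71689301, plus strand): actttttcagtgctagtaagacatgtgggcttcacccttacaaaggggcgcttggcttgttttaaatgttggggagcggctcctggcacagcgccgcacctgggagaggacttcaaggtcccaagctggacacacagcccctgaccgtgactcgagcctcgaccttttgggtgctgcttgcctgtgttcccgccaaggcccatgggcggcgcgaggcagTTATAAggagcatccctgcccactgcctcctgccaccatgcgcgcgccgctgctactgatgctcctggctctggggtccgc
Ptch1 (chr13:63565686-63565985, minus strand): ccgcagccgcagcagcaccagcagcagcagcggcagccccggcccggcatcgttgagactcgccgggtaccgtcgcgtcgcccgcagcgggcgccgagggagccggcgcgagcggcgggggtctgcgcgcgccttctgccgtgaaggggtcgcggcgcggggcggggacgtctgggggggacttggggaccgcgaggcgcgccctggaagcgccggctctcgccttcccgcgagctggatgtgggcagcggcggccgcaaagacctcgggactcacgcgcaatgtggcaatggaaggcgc
The run in Insl3 begins 31 bases before the RefSeq start, which lies inside the GENCODE gene interval given above; Ptch1 had no match in this window, which sits at a start inside the GENCODE gene. TATAA or its complement TTATA occurred in 24.9% of 32851 promoters of this length. The nuclear receptor site AAGGTCA (complement TGACCTT), to which Nr5a1 binds, was in 4.72% of them, and the GLI core TGGGTGG (complement CCACCCA) in 9.30%; none of the 6 promoters held either. No match says only that these letters are not in the window.

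Genes of androgen synthesis did not move as a block. Of 19 listed, 13 were tested: at 8 h against 1 h, 3 rose and 7 fell, with a median log2 fold change of -0.68. The falls were led by Hsd17b1, which reduces oestrone and is a granulosa enzyme (-5.21 ± 0.46, adjusted p = 1.55e-13), and Cyb5a, the partner that boosts the lyase step of Cyp17a1 (-3.89 ± 0.25, adjusted p = 4.67e-18). The rises were led by Fdxr (1.98 ± 0.25, adjusted p = 3.35e-09), which feeds electrons to Cyp11a1, and Por (1.70 ± 0.27, adjusted p = 7.09e-07), the reductase that serves Cyp17a1 (edgeR for each). Star, which brings cholesterol into the mitochondrion, rose by 6.11 ± 0.75 at 1 h against 0 h (adjusted p = 1.01e-08). At 4 h against 1 h it rose by 1.30 ± 0.50 over both batches (adjusted p = 0.0247), with 1.86 ± 0.59 in batch 1 alone but -0.39 ± 0.76 in batch 2 alone, where it did not pass. Its medians in batch 1 were 209, 729 and 135 TPM at 1, 4 and 8 h, and in batch 2 they were 2.02, 357 and 174 TPM at 0, 1 and 4 h. Star differed by -0.18 ± 0.53 at 8 h against 1 h and was not called. Cyp11a1 had medians of 64.0, 153, 356 and 238 TPM and its difference of 0.29 ± 0.51 at 8 h against 1 h was not called.

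Lhcgr, the receptor through which hCG acts, was chosen for mention after its values were seen. Its medians were 42.4, 32.6, 4.74 and 3.07 TPM at 0, 1, 4 and 8 h, and it fell by 3.25 ± 0.63 (log2) at 8 h against 1 h (adjusted p = 2.84e-05, edgeR). Nr5a1, the transcription factor that drives steroid enzyme genes, fell by 1.58 ± 0.23 in the same comparison (adjusted p = 1.29e-07).

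**Figure D2:**
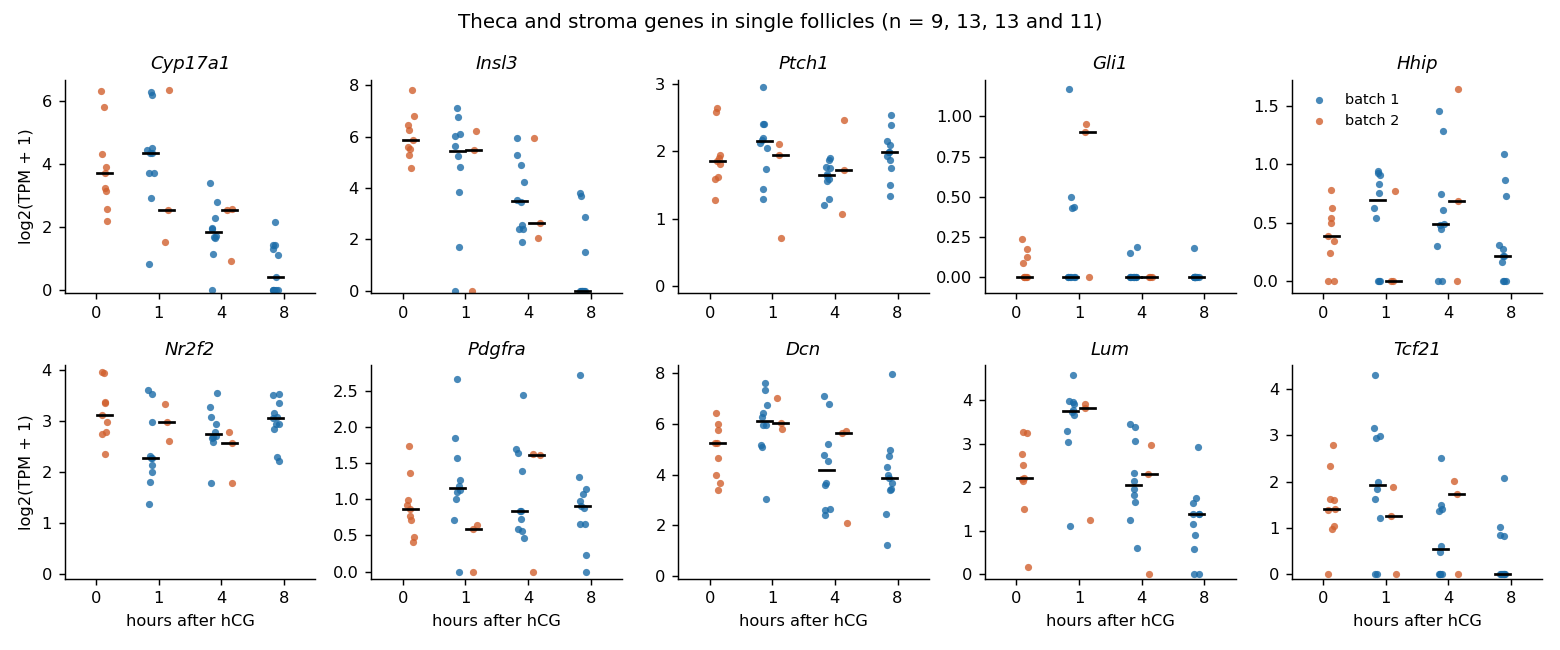
Level of each of the 10 genes, as log2(TPM + 1), in every follicle at 0, 1, 4 and 8 h after hCG; points are follicles (9, 13, 13 and 11), coloured by batch, and bars are medians per time and batch. Cyp17a1 and Insl3 step down to medians of 0.331 and 0 TPM at 8 h, Ptch1 and Nr2f2 stay within narrow bands, and Dcn shows 1 follicle of 248 TPM at 8 h.

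The hedgehog readouts were Ptch1, Gli1 and Hhip, of which Ptch1 alone had enough counts to be tested with a filter. Ptch1 (chr13:63508328-63573598, minus strand), receptor and target of the pathway, had a lowest, median and highest level of 1.42, 2.62 and 5.23 TPM at 0 h, 0.640, 3.29 and 6.71 TPM at 1 h, 1.09, 2.16 and 4.51 TPM at 4 h, and 1.53, 2.98 and 4.82 TPM at 8 h. Its range was the narrowest of the 7 tested genes at 4 h in batch 1, with a coefficient of variation of 22.1%, and the groups overlapped at all times. It fell by 0.68 ± 0.22 on the log2 scale at 4 h against 1 h (adjusted p = 0.00791, edgeR). This fall was -0.80 ± 0.22 in batch 1 alone (10 against 10) and 0.04 ± 0.57 in batch 2 alone (3 against 3). At 8 h against 1 h the difference was -0.31 ± 0.23 (95% interval -0.75 to 0.13), and at 8 h against 4 h it was 0.37 ± 0.22 (interval -0.05 to 0.80; 0.46 ± 0.19 with adjusted p = 0.0468 in batch 1 alone).

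Gli1 (chr10:127329882-127341974), the transcription factor that is the pathway's classic readout, was close to absent. It had 5 counts in 29848418 at 0 h, 9 in 8617372 at 1 h, 2 in 22620850 at 4 h and 1 in 19009915 at 8 h, found in 4 of 9, 6 of 13, 2 of 13 and 1 of 11 follicles. With no filter on low counts it was called lower at 4 h and at 8 h against 1 h (adjusted p = 0.00168 and 0.00237, edgeR), on these few counts.

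Hhip (chr8:79965851-80058006), a membrane protein that binds and traps hedgehog ligands, had medians of 0.310, 0.549, 0.409 and 0.166 TPM at 0, 1, 4 and 8 h and at most 8 counts in any follicle. It was found in 7 of 9, 8 of 13, 10 of 13 and 8 of 11 follicles, and with no filter on low counts it was called in none of the 6 comparisons (differences of -0.43 ± 0.70 at 8 h and 0.53 ± 0.65 at 4 h, each against 1 h, edgeR). Overlapping transcripts on the other strand of Gli1 (Arhgap9) and Hhip (Gm27820), and one on the same strand of Ptch1 (A930032L01Rik), could share reads with them.

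Among the ligands, Ihh and Dhh fell. Of 8 genes for ligands, release and processing, 5 were tested and 2 fell with none rising at 8 h against 1 h. Ihh had medians of 10.6, 13.7, 1.40 and 0 TPM at 0, 1, 4 and 8 h, and was counted in 4 of 11 follicles at 8 h but in all 13 at 1 h. It fell by 5.27 ± 0.49 (log2) at 8 h against 1 h (adjusted p = 8.93e-13, edgeR). Dhh had medians of 4.27, 4.59, 1.57 and 0.538 TPM, and its highest follicle at 8 h, at 1.01 TPM, was below its lowest at 1 h, at 1.20 TPM; it fell by 3.02 ± 0.28 (adjusted p = 9.66e-13). Both had already fallen at 4 h against 1 h, Ihh by 3.10 ± 0.37 and Dhh by 1.62 ± 0.24, and Disp1, which releases the lipid-bound ligand, fell by 0.73 ± 0.28 there (adjusted p = 0.026). The 3 genes Shh, Scube2 and Scube3 were among the 3332 set-apart genes and were not used.

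Of 6 coreceptors and receptors, 2 were tested. Boc, a surface protein that helps ligands reach Ptch1, rose by 2.82 ± 0.37 (log2) at 8 h against 1 h (adjusted p = 1.12e-08) and by 3.74 ± 0.35 at 4 h against 1 h (adjusted p = 9.22e-13, edgeR). Its medians in batch 1 were 1.05, 28.5 and 13.6 TPM at 1, 4 and 8 h, and in batch 2 they were 0.968, 3.58 and 9.09 TPM at 0, 1 and 4 h. The step at 4 h against 1 h was 4.74 ± 0.34 in batch 1 alone and 1.05 ± 0.45 in batch 2 alone, and it differed between the batches (adjusted p = 0.00126). Smo, the transducer that Ptch1 holds back, fell by 1.16 ± 0.17 at 4 h against 1 h (adjusted p = 1.26e-07) and was 0.77 ± 0.17 higher at 8 h than at 4 h (adjusted p = 0.000305). Of 9 genes that relay the signal inside the cell, 4 were tested; Spop, an adaptor for the breakdown of GLI proteins, rose by 1.11 ± 0.18 at 8 h against 1 h (adjusted p = 1.71e-06) and the other 3 did not pass. Gli2 and Gli3 were below the filter, with medians at 8 h of 0.195 and 0.799 TPM.

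**Figure D3:**
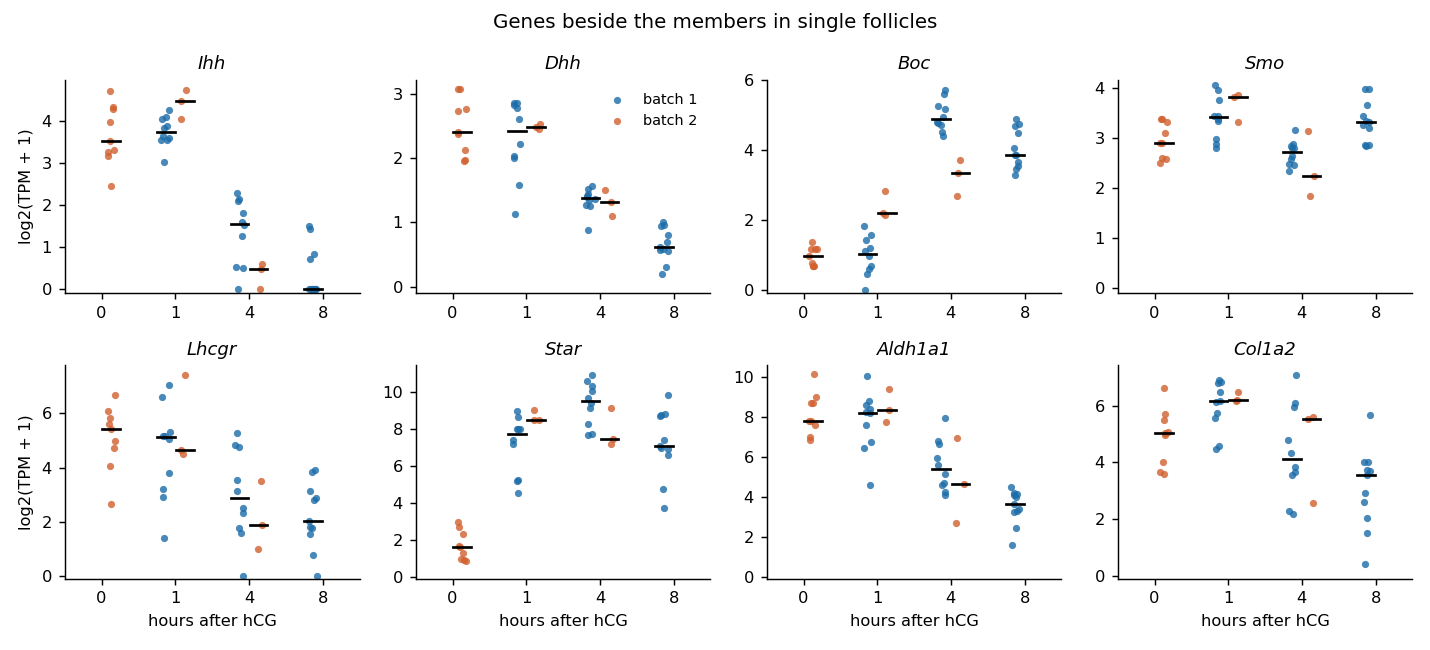
Levels, as log2(TPM + 1), of 8 genes outside the 10 in every follicle at 0, 1, 4 and 8 h, coloured by batch with medians as bars: hedgehog ligands Ihh and Dhh, hedgehog proteins Boc and Smo, steroid genes Lhcgr and Star, and stromal genes Aldh1a1 and Col1a2. Ihh, Dhh, Lhcgr, Aldh1a1 and Col1a2 are low at 8 h, while Boc is high at 4 h, more so in batch 1 (28.5 TPM) than in batch 2 (9.09 TPM).

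Of the stromal genes, Dcn and Lum fell at 4 h and at 8 h, each against 1 h. Dcn (chr10:97479609-97518143) and Lum (chr10:97565128-97572703) are neighbouring genes for decorin and lumican, small proteoglycans that sit on collagen fibrils. Lum had a lowest, median and highest level of 0.127, 3.59 and 8.68 TPM at 0 h, 1.16, 12.6 and 22.7 TPM at 1 h, 0, 3.41 and 9.88 TPM at 4 h, and 0, 1.59 and 6.63 TPM at 8 h. In batch 1, 9 of 10 follicles at 1 h exceeded every follicle at 8 h. It fell by 2.88 ± 0.50 (log2) at 8 h against 1 h (adjusted p = 3.41e-06, edgeR) and by 1.71 ± 0.43 at 4 h against 1 h (adjusted p = 0.000789). The difference of -1.17 ± 0.51 at 8 h against 4 h did not pass (adjusted p = 0.0588, edgeR); it passed without 4 h replicate 13 (-1.22) and without 8 h replicate 8 (-1.66).

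Dcn had a lowest, median and highest level of 9.43, 36.7 and 83.9 TPM at 0 h, 7.27, 64.5 and 192 TPM at 1 h, 3.22, 22.0 and 135 TPM at 4 h, and 1.37, 13.4 and 248 TPM at 8 h. It fell by 1.59 ± 0.56 (log2) at 4 h against 1 h (adjusted p = 0.0148, edgeR) and by 1.40 ± 0.59 at 8 h against 1 h (adjusted p = 0.0441). A single follicle sets the size of the second value: 8 h replicate 8 held 645 of the 957 Dcn counts at 8 h, and without it the fall was 2.70 ± 0.54. At 8 h against 4 h the difference was 0.19 ± 0.60 with that follicle and -1.15 ± 0.53 without it, and neither passed. The call at 8 h against 1 h was lost without 1 h replicate 11, 12 or 13 or 4 h replicate 11, each in batch 2, and without the 0 h libraries marked ds (between -1.37 and -1.29). It was also lost with RLE size factors, without the set-apart genes and with no filter on low counts.

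Tcf21 (chr10:22817281-22820174), a transcription factor of stromal progenitors, was also lower at later times, at a low level. Its medians were 1.66, 2.61, 0.517 and 0 TPM at 0, 1, 4 and 8 h, and it had a count in 8 of 9, 10 of 13, 8 of 13 and 4 of 11 follicles. With no filter on low counts it was called lower at 8 h and at 4 h, each against 1 h (adjusted p = 0.00315 and 0.0193, edgeR), on 34, 15 and 9 counts at 1, 4 and 8 h.

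Nr2f2 and Pdgfra were not called at 4 h or 8 h against 1 h. Nr2f2 (chr7:70351944-70366735), a nuclear receptor of theca and stromal cells, had a lowest, median and highest level of 4.11, 7.71 and 14.6 TPM at 0 h, 1.58, 3.99 and 11.1 TPM at 1 h, 2.43, 5.50 and 10.7 TPM at 4 h, and 3.65, 7.38 and 10.6 TPM at 8 h. Its difference at 8 h against 1 h was 0.15 ± 0.24 (95% interval -0.32 to 0.62). Pdgfra (chr5:75152292-75198215), the receptor for platelet-derived growth factor on stromal cells, had medians of 0.823, 1.16, 0.787 and 0.883 TPM at 0, 1, 4 and 8 h. It differed by -0.48 ± 0.54 at 8 h and by -0.46 ± 0.53 at 4 h, each against 1 h, with intervals of -1.53 to 0.58 and -1.50 to 0.58. In batch 2 alone (3 against 3 follicles, 25 counts at 4 h and 2 at 1 h) the difference at 4 h against 1 h had the other sign, 2.13 ± 1.39, and did not pass.

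Other stromal markers also fell at 8 h against 1 h. Of 12 theca and stroma markers outside the 10, 8 were tested, and 6 fell with none rising at 8 h against 1 h (median log2 fold change -1.96). The falls were led by Aldh1a1, a retinoic acid enzyme (-5.04 ± 0.55, adjusted p = 8.86e-11), and Col1a2, a collagen chain (-2.81 ± 0.53, adjusted p = 1.69e-05, edgeR). At 4 h against 1 h, 2 of the 8 fell (median -0.98), a share no higher than the 28.9% of all genes called lower there, and at 1 h against 0 h none of the 8 passed. Markers of other cells also fell at 8 h against 1 h: 7 of 8 tested granulosa markers; Lyz2, of macrophages, by 2.14 ± 0.77; Cdh5, of endothelium, by 1.80 ± 0.49; and the smooth muscle genes Acta2 by 2.57 ± 0.38 and Tagln by 2.85 ± 0.60. The 5 leukocyte markers summed to between 0 and 63.3 TPM at 8 h and between 0.302 and 275 TPM at 1 h, with Ptprc at 0 in every 1 h follicle. The 5 endothelial markers summed to between 0.491 and 11.3 TPM at 8 h and between 1.76 and 45.0 TPM at 1 h, and the 8 muscle and pericyte markers to between 49.5 and 320 TPM at 8 h and between 342 and 1636 TPM at 1 h. The muscle and pericyte sums were mostly Acta2. That gene alone ran between 47.6 and 311 TPM at 8 h, and between 329 and 1612 TPM at 1 h in batch 1. The part of these other cells in the falls of the 10 genes was not tested.

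**Figure D4:**
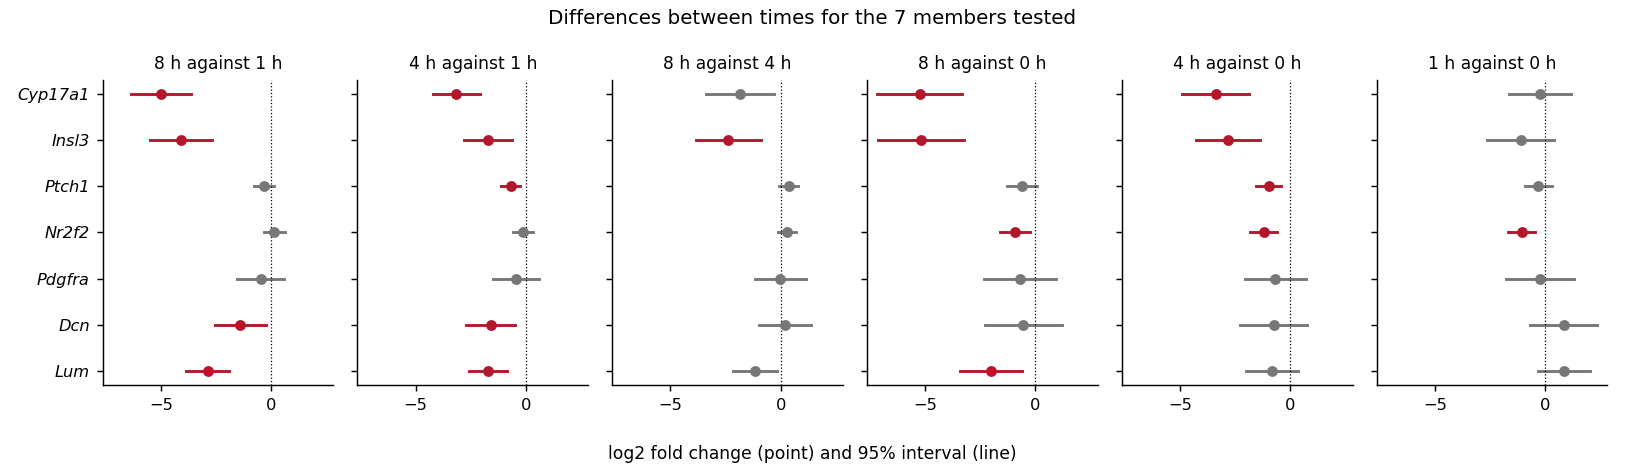
Log2 fold change (points) with 95% interval (lines) for the 7 genes tested in each of the 6 comparisons between times; red marks an adjusted p under 0.05 and grey the rest. Cyp17a1 and Insl3 have the most negative values in each comparison of 4 h or 8 h with an earlier time, except that Lum (-1.71) equals Insl3 (-1.71) at 4 h against 1 h, and the intervals of Nr2f2 and Pdgfra include 0 at 8 h against 1 h.

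Comparisons with 0 h share its 9 follicles and lean on the batch term, because 0 h and 8 h share no batch. The counts had also been adjusted for batch before they were deposited, with settings that are not given. The errors and p-values here, and those of the test between batches below, do not account for that step. At 1 h against 0 h, 1 of 7 genes passed, Nr2f2, which fell by 1.07 ± 0.31 (log2, adjusted p = 0.00734, edgeR; 34.6% of all genes called, 22.2% as lower and 12.4% as higher). In batch 2 alone (3 against 9 follicles) that difference was -0.68 ± 0.34 and did not pass. Dcn and Lum differed by 0.84 ± 0.77 and 0.87 ± 0.60 at 1 h against 0 h, within their errors. At 4 h against 0 h, Cyp17a1 fell by 3.39 ± 0.77, Insl3 by 2.82 ± 0.75, Nr2f2 by 1.21 ± 0.31 and Ptch1 by 0.98 ± 0.29 (54.2% called, 32.2% as lower and 21.9% as higher). In batch 2 alone these were -3.22 ± 1.27, -2.28 ± 0.93, -1.39 ± 0.32 and -0.64 ± 0.41, and Nr2f2 alone passed. Ptch1 also lost its call without 4 h replicate 11 (-0.71). At 8 h against 0 h, Cyp17a1 fell by 5.24 ± 0.98, Insl3 by 5.20 ± 0.99, Lum by 2.01 ± 0.72 and Nr2f2 by 0.92 ± 0.35 (45.1% called, 27.6% as lower and 17.5% as higher), and the batch and the time cannot be told apart there. Nr2f2 lost that call without 1 h replicate 11 or 12, 4 h replicate 11 or 13, or 8 h replicate 8, and without the 0 h libraries marked ds (between -0.88 and -0.58), and Lum without 1 h replicate 12 (-1.65). In the authors' deposited table Cyp17a1 was 35.7-fold and Insl3 36.1-fold lower at 8 h than at 0 h, and Tcf21 was 5.61-fold lower. TPM values rescaled without the 3332 set-apart genes had 0 h medians of 22.5 for Cyp17a1, 92.8 for Insl3, 12.1 for Nr2f2 and 44.2 for Dcn.

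For 4 of the 5 genes called at 4 h against 1 h, though not for Ptch1, the step had the same sign in both batches. Nr2f2, not called, had medians of 3.82 and 5.69 TPM at 1 and 4 h in batch 1. In batch 2 they were 6.90 and 4.96 TPM, the other direction. Pdgfra, also not called, had the other sign in batch 2 alone, as given above. With no filter on low counts, Insl3 (-1.50), Ptch1 (-0.50) and Dcn (-1.39) lost their calls at 4 h against 1 h. In batch 1 alone Cyp17a1 differed by -3.12 ± 0.51, Insl3 by -1.90 ± 0.63, Lum by -1.74 ± 0.45 and Dcn by -1.60 ± 0.72. In batch 2 alone, with 3 against 3 follicles, the values were -3.03 ± 1.44, -0.71 ± 1.14, -1.38 ± 1.06 and -1.33 ± 0.81. None passed in batch 2. In batch 1 the 4 h libraries were a set of their own, whereas 1 h and 8 h shared a set. The 4 h step there and the library set therefore cannot be told apart. The 8 h libraries shared no set with any at 4 h, so the same limit holds for every gene at 8 h against 4 h. A term for library set leaves the step at 4 h against 1 h to the 3 against 3 follicles of batch 2. With it 0 of the 5 calls passed, which adds nothing to the comparison in batch 2 alone. A direct test of the batch difference was possible for 5 of the 7 genes: Insl3, Ptch1, Nr2f2, Dcn and Lum. It called none of the 5 (5.09% of 5820 genes called), and Cyp17a1 and Pdgfra were not tested. None of the 5 had an unadjusted p under 0.05, and DESeq2 called none. For 8 h against 1 h, batch 1 alone gave -4.94 ± 0.58 for Cyp17a1, -4.13 ± 0.73 for Insl3, -2.84 ± 0.47 for Lum and -1.37 ± 0.67 for Dcn, of which Dcn did not pass (adjusted p = 0.0816, edgeR).

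The genes were next compared with each other among follicles of 1 time and batch. At 1 h in batch 1 (10 follicles) 4 of the genes had a median count of at least 10, and all 6 of their pairs correlated positively, with Pearson's r of log2 CPM (counts scaled to library size) between 0.62 and 0.94 and a median of 0.82. Over all pairs of 4552 genes in the same follicles the median was 0.0079, and 10.2% of pairs exceeded 0.5.

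The strongest pair was Cyp17a1 and Dcn, a steroid enzyme and a matrix protein, with r = 0.94 and Spearman's rho = 0.73 (permutation p = 0.00033, 0.0109 after Benjamini-Hochberg adjustment over 33 relations). Cyp17a1 and Insl3 had r = 0.84 and rho = 0.78 (permutation p = 0.00204, adjusted 0.0312). Dcn and Lum had r = 0.88 and rho = 0.81 (permutation p = 0.00284, adjusted 0.0312), and Insl3 and Dcn r = 0.80 and rho = 0.88 (permutation p = 0.00454, adjusted 0.0375). Cyp17a1 and Lum (r = 0.79, adjusted permutation p = 0.0794) and Insl3 and Lum (r = 0.62, adjusted permutation p = 0.209) did not pass. By rank, none of the 33 relations passed, the lowest adjusted permutation p being 0.0564.

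The relation leaned on its extreme follicles to a different degree for each pair. Replicates 1 and 7 were the 2 highest of the 10 for Cyp17a1 (77.3 and 72.2 TPM), Insl3 (138 and 109 TPM), Dcn (192 and 160 TPM), Pdgfra (5.33 and 2.59 TPM) and Tcf21 (18.7 and 7.96 TPM), and replicate 6 was the lowest for Cyp17a1, Dcn and Lum (0.783, 7.27 and 1.16 TPM). Without the 2 follicles farthest from the median of the first gene, r was 0.80 for Cyp17a1 and Dcn, 0.79 for Cyp17a1 and Insl3, 0.69 for Dcn and Lum and 0.67 for Insl3 and Dcn, and all 4 lost their call (adjusted exact permutation p = 0.399 for each, 8 follicles). It was 0.31 for Cyp17a1 and Lum and -0.22 for Insl3 and Lum, so those relations rest on the extreme follicles.

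**Figure D5:**
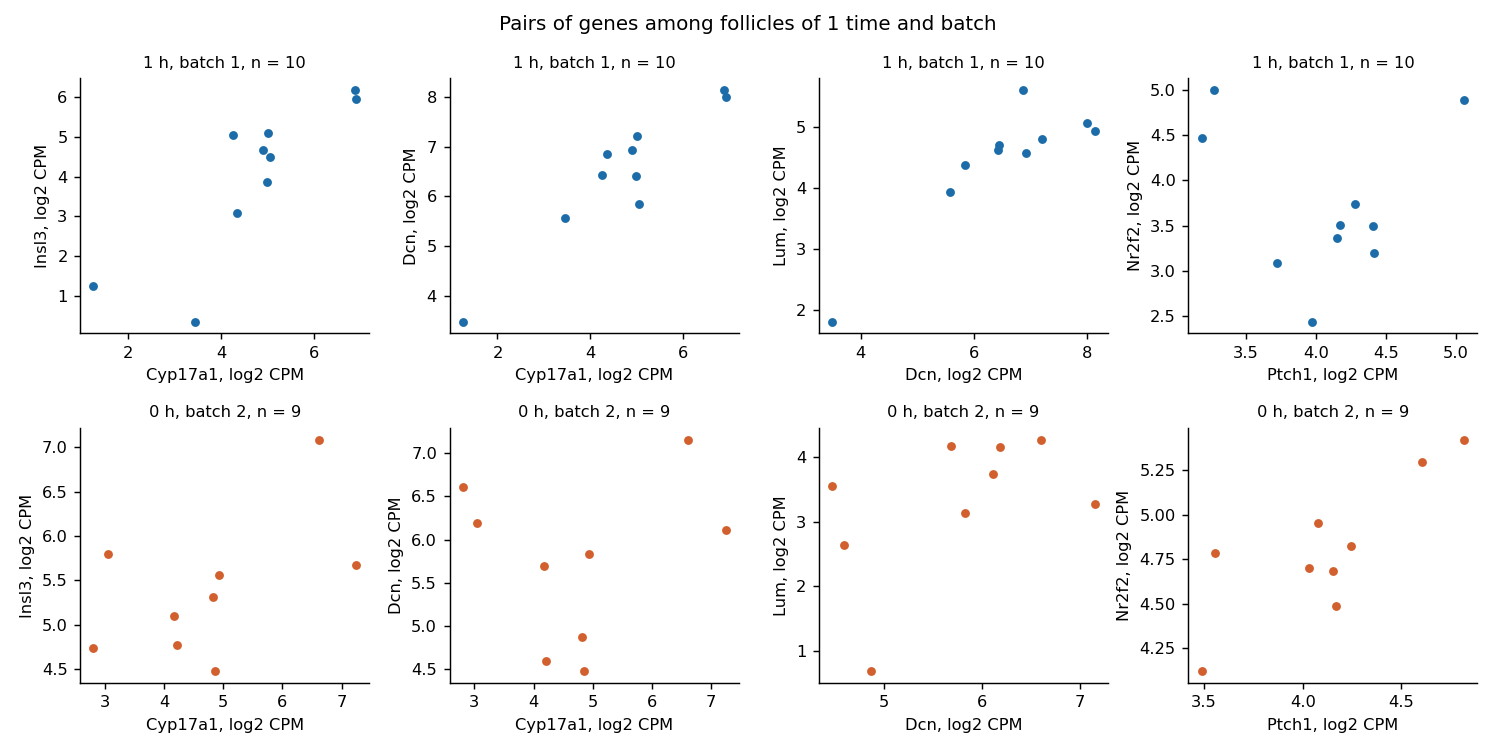
Log2 CPM of 4 pairs of genes, with 1 point per follicle, at 1 h in batch 1 (upper row, 10 follicles) and at 0 h in batch 2 (lower row, 9 follicles). The first 3 pairs rise together at 1 h (r = 0.84, 0.94 and 0.88) and less so at 0 h (r = 0.54, 0.15 and 0.48), while Ptch1 and Nr2f2 rise together at 0 h (r = 0.81).

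The same follicles were high for other stromal markers, for Cdh5 and for Lyz2. At 1 h in batch 1 the 6 measurable theca and stroma markers outside the 10 had a median r of 0.84 with Cyp17a1, 0.78 with Insl3, 0.74 with Dcn and 0.63 with Lum. Cdh5, of endothelium, had r = 0.92 and Lyz2, of macrophages, r = 0.86 with Cyp17a1, whereas the 7 granulosa markers had a median r of -0.19. The 2 measurable smooth muscle genes, Acta2 and Tagln, had r between -0.32 and 0.30 with Cyp17a1. Follicle replicate 1 was first of 10 in summed stromal markers (2300.4 TPM), endothelial markers (45.0 TPM) and leukocyte markers (275 TPM), and replicate 6 was last in all of them (109, 1.76 and 0.302 TPM). Of the leukocyte markers, Lyz2 reached up to 268 TPM in these 10 follicles and Ptprc had no count. These are descriptions across 10 follicles that share a batch. There r against log10 total count was -0.41 for Lum, -0.31 for Insl3, -0.19 for Dcn and -0.07 for Cyp17a1. The part of depth was not tested. At 0 h in batch 2 the 8 measurable theca and stroma markers had a median r of -0.05 with Cyp17a1 (-0.32 to 0.73) and 0.13 with Insl3. It was 0.49 with Dcn and 0.37 with Lum. The 8 granulosa markers had a median r of 0.29 with Cyp17a1 at 0 h.

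Ptch1 had no single course beside Cyp17a1. The follicles at 1 h with most Cyp17a1, replicates 1 and 7 of batch 1 and replicate 13 of batch 2 (77.3, 72.2 and 81.4 TPM), had Ptch1 at 1.71, 1.46 and 0.640 TPM, the lowest values of their batches. At 0 h the follicles with least Cyp17a1, replicates 7 and 3 (3.61 and 4.91 TPM), had the highest Ptch1 (5.23 and 4.98 TPM). Replicate 1, with most Cyp17a1 (78.9 TPM), had 2.83 TPM. At 4 h the follicle with most Cyp17a1 also had most Ptch1 in each batch. The values were 9.52 TPM of Cyp17a1 and 2.72 TPM of Ptch1 in replicate 8 of batch 1, and 4.91 and 4.51 TPM in replicate 13 of batch 2. Counts were few: in batch 2 another follicle at 4 h had Cyp17a1 at 4.86 TPM, with at most 9 counts in any. The lowest Ptch1 count there at 1 h was 1. Over all 46 follicles, with the mean of each time and batch removed, r between Ptch1 and Cyp17a1 was -0.43, between Ptch1 and Dcn 0.0066, and between Insl3 and Cyp17a1 0.56. These values over 46 follicles are descriptions; at 0 h alone the pair had r = -0.34 and rho = -0.35 and did not pass (exact permutation p = 0.37, adjusted 0.69).

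At 0 h (9 follicles) 7 genes could be paired, and the 21 pairs had a median r of 0.147, beside -0.001 over all pairs of 7941 genes. The highest were Ptch1 and Nr2f2 (r = 0.81, rho = 0.67, exact permutation p = 0.00897, adjusted 0.0592), Cyp17a1 and Pdgfra (r = 0.74, rho = 0.70, adjusted exact permutation p = 0.103) and Insl3 and Dcn (r = 0.71, rho = 0.63, adjusted exact permutation p = 0.103). None passed, and without the 2 farthest follicles they were 0.50, 0.20 and 0.27. Cyp17a1 and Dcn, the strongest pair at 1 h, had r = 0.15 at 0 h (adjusted exact permutation p = 0.781), and Cyp17a1 and Insl3 had r = 0.54. Whether the pairs differ between 0 h and 1 h was not tested.

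At 4 h in batch 1 and at 8 h, only Ptch1, Nr2f2 and Dcn had enough counts to pair. At 4 h r was 0.51 for Nr2f2 and Dcn, 0.20 for Ptch1 and Dcn and 0.13 for Ptch1 and Nr2f2 (10 follicles), and at 8 h the same pairs had r of -0.35, 0.25 and 0.20 (11 follicles); none passed. Of the 3 genes, Dcn kept closest to the stromal markers at both times, with a median r of 0.90 over 7 markers at 4 h and 0.83 over 6 at 8 h, and 0.49 over 8 at 0 h. With the same markers Nr2f2 had a median r of 0.44 at 4 h and -0.31 at 8 h, and Ptch1 had 0.26 and 0.19. Depth moved with Dcn at 4 h (r = -0.68 against log10 total count, and -0.61 for Nr2f2), and its part was not tested.

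Single follicles showed the unevenness best. At 4 h, replicates 8 and 10 of batch 1 had Dcn at 110 and 135 TPM beside a batch median of 16.9 TPM, and stromal marker sums of 1283 and 2016 TPM beside 151 TPM. Replicate 8 had the batch's highest Cyp17a1 (9.52 TPM) and Insl3 (61.0 TPM), and replicate 10, the smallest library with 241442 counts, had Insl3 at 38.2 TPM on 4 counts. At 8 h, replicate 8 was highest of 11 for Dcn (248 TPM), Pdgfra (5.59 TPM), Lum (6.63 TPM), Hhip (1.13 TPM) and Tcf21 (3.20 TPM), with stromal markers at 1188 TPM beside a median of 119. Its Dcn exceeded that of every 1 h follicle (highest 192 TPM), while its Cyp17a1 was 1.49 TPM and its Insl3 11.9 TPM, against medians of 19.4 and 42.8 TPM in the 1 h follicles of batch 1. Among the 11 follicles at 8 h, its Insl3 was among the 2 highest (median 0, highest 12.8 TPM). Its Cyp17a1 lay above the 8 h median of 0.331 TPM (highest 3.51 TPM). Its Nr2f2 was the lowest of the 8 h follicles (3.65 TPM).

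Genes whose levels were most like those of 3 of the 10 across all 46 follicles, after removal of the mean of each time and batch, were found by Pearson's r with no test. For Cyp17a1 they were Nadk (0.65), Aldh1a7 (0.64), Frzb (0.62), Alas1 (0.62) and B4gat1 (0.59), with Insl3 at rank 10 (0.56). For Ptch1 they were Col11a1 (0.70), Rhobtb1 (0.66), Adamts2 (0.61), Dlg5 (0.61) and Setdb1 (0.60). For Dcn they were Bgn (0.88), Col3a1 (0.86), Col1a1 (0.85), Col1a2 (0.83) and Lhfp (0.81), with Pdgfra at rank 49 (0.67), Lum at rank 81 (0.61) and Insl3 at rank 133 (0.53).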

How the data were processed

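Single-follicle polyA RNA libraries (Smart-Seq2 with Nextera XT, no strand kept, per the labels' protocols) were mapped to GRCm38, with HISAT2, Partek and DESeq2 named in the submitters' processing notes. The authors deposited gene counts and TPM values, adjusted for batch with ComBat-seq per the deposited file's own name, and a table of signed fold scores with p-values and false discovery rates against 0 h; a column of total count signal in that deposited table was not used. Of the columns in each expression table, 10 carried names found in none of the labels and were left out. The adjusted counts are whole numbers; the settings of the adjustment are not given in the sources used here.

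Counts were tested with edgeR 4.0.16 (TMM, filterByExpr, quasi-likelihood, time plus batch, 46 follicles, Benjamini-Hochberg over 8629 genes, threshold 0.05) in R 4.3.3; limma 3.58.1 on log2(TPM + 1) and DESeq2 1.42.0 were alternatives. Correlations used log2 CPM with a prior count of 2, among genes with a median count of at least 10, within 1 time and batch: exact permutation below 10 follicles, otherwise 100000 permutations. Tested on simulated data for 8 h against 1 h (8613 genes), the fit recovered 95.9% of genes set lower by 2 and 64.0% of those set lower by 1 on the log2 scale. Total counts ranged from 241442 to 5185044, so a count of 0 allows up to 3 counts, counting error only.

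Named genes were the 10 members, up to 2 rises and 2 falls per list and comparison, and the 5 genes most like Cyp17a1, Ptch1 and Dcn. Members, lists and tests were chosen with earlier results of these data known. Gene positions are from GENCODE M21 (GRCm38), promoters from RefSeq (GRCm38.p6).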

Additional observations from a re-analysis of the deposited data

Results flagged for a closer look

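Among 14 combinations of gene and group of 9 or 10 follicles with enough counts, 3 had a follicle far from the others, where chance gives about 1 in 20. Insl3 at 0 h was high in replicate 8 (353 counts, 225 TPM), whose gap to the next follicle was 0.496 of the whole range on the log2 CPM scale. Lum was low in replicate 6 at 0 h (1 count, 0.127 TPM), with a gap of 0.547 of the range, and in replicate 6 of batch 1 at 1 h (2 counts, 1.16 TPM), with a gap of 0.558 of the range.

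For 3 genes of the lists, the step at 4 h against 1 h differed between batches by a test of the difference itself (edgeR, batch 2 minus batch 1, log2). For Boc it was -3.68 ± 0.65 (adjusted p = 0.00126), with steps of 1.05 in batch 2 and 4.74 in batch 1. For Ihh it was -3.39 ± 0.84 (adjusted p = 0.016), with only 2 counts at 4 h in batch 2 against 77 in batch 1. For Nr5a1 it was 1.87 ± 0.51 (adjusted p = 0.0278), with steps of -0.41 in batch 2 and -2.29 in batch 1. In batch 1 the 4 h libraries were a set of their own, so batch and library set cannot be told apart there.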

How the results depend on the processing

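Of 364 alternative values for the 19 called differences, 291 kept direction and call, 72 lost the call and 1 changed sign; Cyp17a1, Insl3 and Lum at 8 h against 1 h kept theirs under every alternative in which they were tested. Genes called over time fell to 1 of 7 in batch 2 alone and, with counts thinned to the smallest library, where 1 gene could still be tested, 0 were called over time, in each of the 6 comparisons and among the pairs. At 1 h against 0 h the count of 1 became 0 in batch 2 alone, with a library set term, with limma on log2(TPM + 1) or log2(TPM + 0.1) and with a replicate block, and 2 with no batch term. At 4 h against 0 h the count of 4 became 1 in batch 2 alone and with limma on log2(TPM + 0.1), 2 with limma on log2(TPM + 1) with or without a filter, and 0 with the block. At 8 h against 0 h the 4 became 2 with no filter (edgeR or limma), 0 with the block, and 2 to 4 with single libraries left out. At 4 h against 1 h the 5 became 0 in batch 2 alone and with the library set term, and 3 with limma at either pseudocount. The library set term leaves that step to the 3 against 3 follicles of batch 2. The replicate block joins follicles of the same number, although the numbers do not pair follicles. Within each number present at 0 h, time and batch change together. The batch term with the block then rests on number 11, whose only batch 1 library is at 8 h. The block therefore cannot decide the calls against 0 h. At 8 h against 4 h the 1 became 3 in batch 1 alone and with DESeq2, 0 with the library set term, 2 with limma on log2(TPM + 0.1), the block or without 8 h replicate 8, and 1 to 2 with single libraries left out. Calls over all genes moved too: at 4 h against 0 h, 4673 of 8629 genes were called, 1479 with the block and 3451 of 10330 in batch 2 alone; at 8 h against 0 h, 3892, and 852 with the block; at 4 h against 1 h, 4733, 2054 with the library set term and 1242 of 10330 in batch 2 alone. With no filter 4 genes were called at 4 h against 1 h, of which Cyp17a1 and Lum were among the original 5. Beyond the limits given for the block and the library set term, the cause of these changes was not tested.

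Signs turned as follows. Cyp17a1 at 1 h against 0 h was between -1.41 and 0.27 with single libraries left out. With the replicate block, which cannot decide that comparison, Insl3 was 0.54 and Dcn -0.090 there. Ptch1 at 4 h against 1 h was 0.040 in batch 2 alone. Pdgfra at 4 h against 1 h was 2.13 in batch 2 alone, 2.09 with the library set term, and 0.056 and 0.20 with limma on log2(TPM + 1), with or without a filter, and log2(TPM + 0.1). At 8 h against 4 h, with the library set term, Ptch1 was -0.38 and Dcn -0.061; Dcn was -0.15 with the block, -0.31 and -0.35 with limma at the 2 pseudocounts, and between -1.15 (without 8 h replicate 8) and 0.24 with single libraries left out. By rank, 0 pairs passed; Cyp17a1 and Dcn at 0 h and Ptch1 and Nr2f2 at 8 h were -0.017 and -0.018. Thinned, Cyp17a1 and Insl3 (-0.36), Cyp17a1 and Dcn (-0.69) and Ptch1 and Nr2f2 (-0.27) turned at 0 h. Ptch1 and Nr2f2 (-0.21) turned at 4 h, and Ptch1 and Dcn (-0.32) and Nr2f2 and Dcn (0.35) at 8 h. Thinning cut libraries with a median total of 3286107 counts at 0 h to 241442. Cyp17a1 and Ptch1, with median counts of 59 and 43 there before thinning, were left with few. The median count of Ptch1 before thinning was 14 at 4 h in batch 1 and 21 at 8 h. These turns therefore cannot decide the relations. Without the 2 farthest follicles Insl3 and Lum were 0.042 at 0 h and -0.22 at 1 h, and at 8 h Ptch1 and Nr2f2 were -0.41 and Nr2f2 and Dcn 0.39. Insl3 and Lum at 0 h were 0.15 on log2(TPM + 1) and 0.024 with RLE size factors, and the median r at 4 h was 0.52 on log2(TPM + 1).

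The follicle numbers do not pair follicles: 62 same-numbered pairs had a mean correlation of 0.0024 (-0.20 to 0.25), and 7 follicles correlated best with their own number. limma on log2(TPM + 0.1) moved the median of all genes to 0.39 at 8 h against 1 h, and limma on log2(TPM + 1) to 0.22, where it called 3594 genes higher and 1550 lower, beside 2003 higher and 2236 lower with edgeR; the 4 genes called there fell under both scales. Gli1, Hhip and Tcf21 had too few counts to pass the filter. Leaving out 8 h replicate 8 and rescaling TPM without the set-apart genes were chosen after seeing the data.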

Other observations

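Acta2 and Cdh5 were higher at 1 h than at 0 h. Acta2, the contractile actin that also marks the outer theca, rose by 2.85 ± 0.48 (log2) at 1 h against 0 h (adjusted p = 7.57e-06, edgeR), when none of the 8 tested theca and stroma markers passed, and fell by 2.57 ± 0.38 at 8 h against 1 h. The summed muscle and pericyte markers had medians of 74.7, 857, 550.3 and 203 TPM at 0, 1, 4 and 8 h. These sums largely repeat Acta2. Its own medians were 73.9 TPM at 0 h and 201 TPM at 8 h. In batch 1 they were 830 TPM at 1 h and 513 TPM at 4 h. Cdh5, of endothelium, rose by 1.98 ± 0.67 at 1 h against 0 h (adjusted p = 0.0196). The epithelial keratin Krt18 rose by 2.52 ± 0.58 at 8 h against 1 h (adjusted p = 0.000319, edgeR). Of 6 listed surface epithelium markers only 2 were tested, and both rose there. Krt7, not tested, had medians of 1.07 TPM at 1 h in batch 1 and 1.47 TPM at 8 h. At 8 h Krt19 was counted in 1 of 11 follicles and Upk3b in 0, so a rise of the list as a whole was not shown.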
